A study of Mus musculus with 22 samples.

Results

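The 7 ulna libraries with the largest share of titin (Ttn) counts were set against the 7 with the smallest share, out of 22 libraries in all. Each library was ranked by its Ttn count divided by its total count, and the 8 libraries between the sides were left out of that comparison. The libraries were therefore selected on a measured value, and differences between the sides are given as a description without a test. The sides are called Ttn-high and Ttn-low here.

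The study sequenced total RNA from the middle segment of the ulna of 11 mice, 7 wild type (WT) and 4 labelled as Tlr4 conditional knockout (CKO). Its title concerns signalling by Tlr4 in osteoblasts. The right forelimb of each mouse was loaded and the left was not, which gave 7 WT loaded, 7 WT non-loaded, 4 CKO loaded and 4 CKO non-loaded libraries. Mouse strain, age, the Cre driver and the loading regime were not given in the sources used here. Bone was pulverised before extraction, and genes of bone, marrow and muscle were all counted in every library. In such bulk RNA, fewer cells of a type and less RNA per cell cannot be told apart.

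Skeletal muscle attaches along the ulna and can be carried over when the bone is dissected. Muscle fibres fill with sarcomeres, in which actin and myosin filaments slide past each other and titin spans from the edge to the middle of the unit as a molecular spring. The marrow cavity holds red cell precursors, granulocytes, megakaryocytes and lymphocytes, many of them dividing, while osteoblasts and osteocytes sit on and in the mineralised matrix. Muscle, marrow and bone thus bring different sets of RNA into a bone library.

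Muscle genes share short control sequences, and 1 upstream region is shown because Acta1, the actin of skeletal muscle, gave the order of libraries farthest from that of Ttn among 3 muscle genes tried. The sequence is the 250 bases before the RefSeq start of Acta1 (GRCm38.p6, chr8:123894776-123895025, minus strand), written 5′ to 3′, with capitals for an E-box (CAGCTG), a CArG box and the TATAAA letters of a TATA box.
Acta1: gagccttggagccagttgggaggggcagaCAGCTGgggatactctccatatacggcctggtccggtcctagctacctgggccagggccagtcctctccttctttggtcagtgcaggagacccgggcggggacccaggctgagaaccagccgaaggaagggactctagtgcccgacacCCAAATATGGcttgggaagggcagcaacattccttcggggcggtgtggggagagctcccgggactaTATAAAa
The E-box is bound by myogenic factors such as MyoD and the CArG box by serum response factor, as background. The first bases of these matches lay at -221, -73 and -7 from the RefSeq start. In the GENCODE annotation Acta1 begins further downstream, at 123894751, so the matches lie farther from that start. The muscle-list promoters here are those of the sarcomere, fast-fibre, calcium and excitation, and energy lists, not of every muscle list. Searched on both strands, CAGCTG occurred in 24 of the 50 found in the RefSeq table, which is 48.0%, and in 12.8% of all 27025 promoters there. The MEF2 box, the site of another muscle factor family, occurred in 11 of the 50 muscle-list promoters and in 3.0% of all. The CArG box was found in 8.0% and 1.4%. Among marrow genes, AGATAA, a form of the GATA site, was present in 36.8% of 19 erythroid promoters and 10.3% of all, and GAGGAA, a core of the ETS family site, in 68.2% of 22 neutrophil promoters and 23.1% of all. These matches describe letters in the windows and were not tested as sites.

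Ttn made up 6.60% to 8.98% of counts in the Ttn-high libraries, with a mean of 7.64% ± 0.979 (SD, n = 7), and 1.61% to 5.14% in the Ttn-low libraries, with a mean of 3.72% ± 1.41 (SD, n = 7). The high side held 4 loaded and 3 non-loaded libraries, 4 WT and 3 CKO, from 6 mice. On the low side were 3 loaded and 4 non-loaded libraries, 5 WT and 2 CKO, from 5 mice. Both limbs of mouse 686 were on the high side, both limbs of mice 694 and 699 on the low side, and mouse 698 had its loaded limb high and its non-loaded limb low. Counting error was small beside these gaps: the 95% Wilson interval of the lowest share, in CKO non-loaded 691, ran from 1.61% to 1.62% (counting error only).

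The borders did not fall in gaps. Just inside the high side stood CKO loaded 693 at 6.60%, and just outside it WT loaded 687 at 6.56%. The highest of the low side was WT loaded 699 at 5.14%, and the next library above it CKO non-loaded 693 at 5.23%. Only 3 libraries were below 3% of counts, namely WT loaded 694 at 2.85%, WT non-loaded 699 at 2.36% and CKO non-loaded 691 at 1.61%, and they stood apart from the remaining 19.

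**Figure D1:**
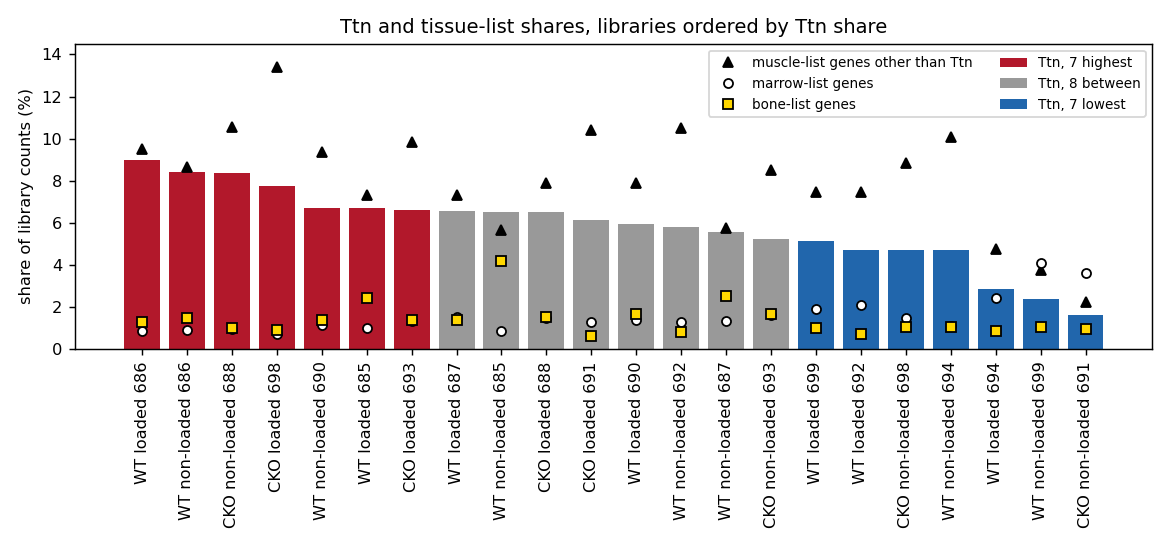
Share of library counts (%) in each of the 22 libraries, ordered by Ttn share: bars give Ttn, red for the 7 highest, grey for the 8 between and blue for the 7 lowest. Triangles, circles and squares give the summed shares of muscle-list genes other than Ttn, marrow-list genes and bone-list genes; the other muscle genes do not keep the order of Ttn, and WT non-loaded 694 on the low side has 10.1%.

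All 22 libraries held 21999891 to 42833729 counts, and the sides overlapped in depth, with 26302959 to 42833729 on the high side and 26488724 to 36247792 on the low side. The labels of 2 mice went against Ltbp2, a matrix gene that otherwise separated the genotypes: the library labelled WT loaded 686 had 380 CPM (counts scaled to library size), above all CKO libraries and far above the other WT ones, and the library labelled CKO loaded 688 had 38.3 CPM, in the range of WT. The non-loaded limbs of mice 686 and 688 had 46.0 and 310 CPM, in the range of their labelled genotype. Both limbs of mouse 686 and the non-loaded limb of 688 are on the high side, so counts below are also given without these 2 mice. Slopes fitted between the limbs of a mouse and counts of mice by limb were not repeated without them. No share of muscle without Ttn, of marrow or of bone was shown to differ by load (exact sign-flip test over 11 mice, two-sided) or by genotype (exact permutation test over 330 arrangements, two-sided), with p adjusted over the 6 tests from 0.591 to 1. The largest mean difference was in muscle by genotype, 8.96% ± 1.98 (SD, n = 4) in CKO and 7.52% ± 1.38 (SD, n = 7) in WT (exact permutation p = 0.197). This difference of 1.43 percentage points was 1.60 without mice 686 and 688, 2.32 without mouse 691 and 0.716 without mouse 698.

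The name muscle-rich fitted the sides on average but not library by library. Summed over 115 muscle-list genes other than Ttn, the Ttn-high libraries had 9.81% ± 1.90 of counts (SD, n = 7; 7.30% to 13.4%) and the Ttn-low libraries 6.36% ± 2.85 (SD, n = 7; 2.23% to 10.1%). The ranges overlapped, since WT non-loaded 694, placed on the low side by Ttn, had more of the other muscle genes than 5 of the high libraries. The ratio of Ttn to Acta1 counts ran from 7.57 in WT non-loaded 694 to 21.9 in WT non-loaded 685, and from 0.0996 to 0.289 per unit of exon length. Had the libraries been ranked by Acta1, only 3 of the high 7 and 3 of the low 7 would have been the same, and by Neb, 6 and 4. What sets this ratio was not tested.

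Of the 18792 other genes tested, 142 lay higher in all 7 Ttn-high libraries than in all 7 Ttn-low libraries, which is 0.756%, and 172 lay lower, 0.915%. With libraries ranked by Acta1 instead, 0 of these genes were separated the same way, and with Neb 19 and 8 of them were. The median difference of all genes in mean log2 CPM was 0.05, with 10308 genes above 0 and 8484 below. Relations to Ttn were tested over all 22 libraries as the slope of a gene's log2 CPM on the log2 Ttn share, with the 4 group means in the model (edgeR quasi-likelihood test, Benjamini-Hochberg over all genes, threshold 0.05); a slope of 1 means that the level doubled when the Ttn share doubled. This test called 5377 positive slopes, 28.6%, and 4938 negative ones, 26.3%. It took the limbs of a mouse as independent libraries, which they are not. Its standard errors and adjusted p may therefore be too small for genes that vary between mice. With the mouse as a block, so that each loaded limb was set against the other limb of its mouse, 5071 genes (27.0%) were positive and 5068 (27.0%) negative. In the model with group means the counts without mice 686 and 688 were 4785 and 4369. The fit with the mouse as a block was not repeated without them.

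The 3 libraries below 3% Ttn carried much of these counts. Without them 554 genes were positive and 594 negative, and none of the calls that remained changed sign. Leaving out mouse 691, whose 2 limbs differ most in Ttn, left 3321 positive and 4178 negative in the model with group means. The fit with the mouse as a block was not repeated without mouse 691, whose loaded limb had 3.80 times the Ttn share of the other. By list, the positive calls without that mouse were 27 of 32 sarcomere, 9 of 14 fast-fibre, 8 of 13 satellite and myogenic, 12 of 33 nuclear oxidative phosphorylation, 9 of 19 fatty acid oxidation, 7 of 27 tendon and fibrous, 8 of 15 smooth muscle, 3 of 18 endothelial and 5 of 25 osteoblast genes. The negative calls of the erythroid, neutrophil and cell cycle lists were 25 of 26, 24 of 24 and 30 of 30. That fit called 3321 of all 18910 genes positive and 4178 negative. The endothelial and osteoblast counts were near the positive share of all genes. Without mice 686 and 688 the sarcomere, erythroid, neutrophil and cell cycle genes were all called as with them, osteoblast genes in 20 of 25 and B cell genes in 1 of 23. Of all 18934 genes in that fit, 4785 were called positive and 4369 negative. Ttn counts are also part of every library total, and scaling by the counts outside the muscle lists changed the split from 52.1% positive among calls to 41.0%, with 4086 positive and 5873 negative. The first of these alternatives was chosen after the data had been seen.

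The median of every muscle list was higher on the Ttn-high side. All 32 sarcomere genes had a higher mean, with a median difference of 0.91 against 0.05 over all genes, and all 32 rose with Ttn in the slope test. The 14 fast-fibre genes had a median of 0.99 and were all called, 20 of 20 genes of muscle energy supply were called with a median of 0.96, and 17 of 18 genes of calcium handling and excitation with 0.95. Of 15 genes of the neuromuscular junction and the membrane complex all were called, with a median of 0.93. Among 13 genes of satellite cells and myogenic control 12 were called, with a median of 0.71. Across these lists only Neb, Dmd, Mef2d and Cdh15 were separated without overlap. These genes were picked out after their values were seen. Without the 3 libraries below 3% Ttn, 0 of 14 fast-fibre, 0 of 20 energy and 1 of 18 calcium genes were called positive. In that fit 2 of 15 junction and membrane and 1 of 13 satellite and myogenic genes were called, against 554 of 18871 genes in all. Median slopes of the lists just named ran from 0.29 to 0.50 there.

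Neb, which encodes nebulin along the actin filament, measured 8824 to 15940 CPM in the Ttn-high libraries (median 10240) and 1894 to 8422 CPM in the Ttn-low ones (median 6201). The ranges did not overlap, and the lowest was CKO non-loaded 691. Its slope was 1.01 ± 0.11 (SE; edgeR adjusted p = 4.756e-07).

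Dmd, the gene of dystrophin, which ties the sarcomere to the membrane, ranged from 286 to 425 CPM (median 345) on the high side and from 78.6 to 268 CPM (median 233) on the low side. The sides were again separate, with a fold of 1.99. Its slope of 0.94 ± 0.06 (SE, edgeR adjusted p = 2.984e-08) was called in each of 24 alternatives. It stayed between 0.83 and 1.03 in all but the fit on Ttn as a percent, which has another scale.

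Acta1 measured 4723 to 9174 CPM in Ttn-high libraries (median 5692) and 936 to 6149 CPM in Ttn-low libraries (median 4330). Here the sides overlapped, because WT non-loaded 694 at 6149 CPM exceeded 5 of the 7 high libraries. The slope was 0.93 ± 0.17 (SE; edgeR adjusted p = 0.0001078), and without the 3 libraries below 3% Ttn it was 0.44 and not called. In that same alternative 2 of the 32 sarcomere genes were called, with a median slope of 0.40 against 0.88 over all libraries. The positive calls among all genes were then 554 of 18871.

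The fast myosins Myh1 and Myh4 differed by 1.09 and 1.01 in mean log2 CPM, and Atp2a1, the calcium pump of fast fibres, by 1.05. Ckm, the muscle creatine kinase, differed by 1.06 and Mb, myoglobin, by 0.90. Ryr1, the calcium release channel of the fibre, differed by 1.08. Slow-fibre genes moved less uniformly. Of 10, 6 were called positive, among them Myh7, the slow myosin, at a difference of 0.98 from a low level of 4.87 CPM in Ttn-low libraries, and Myl2, a slow light chain, at 0.58. Atp2a2, the calcium pump of slow fibres and many other cells, was not called (slope -0.08, adjusted p = 0.1325). Tpm3, a tropomyosin that is also made outside muscle, went against its list, with 120 to 152 CPM on the high side (median 135) and 130 to 299 CPM on the low side (median 207). Its slope was -0.56 ± 0.06 (SE; edgeR adjusted p = 8.257e-07). Of the 4 developmental muscle genes with enough counts, Myh3, Myh8 and Actc1 were called positive and Myl4 was not (slope -0.07, adjusted p = 0.6967).

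**Figure D2:**
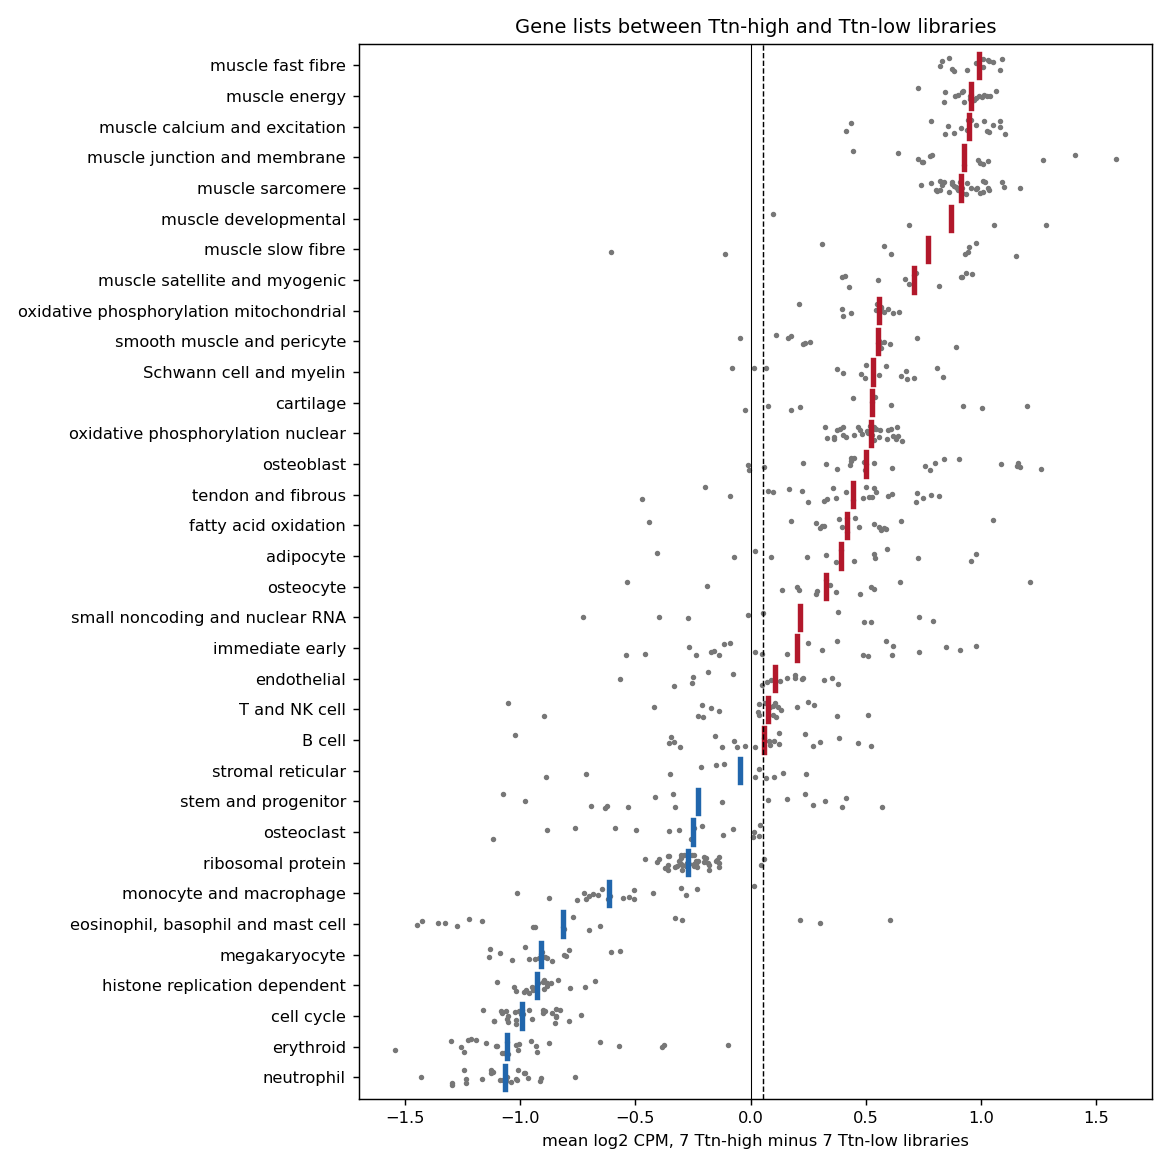
Difference in mean log2 CPM between the 7 Ttn-high and the 7 Ttn-low libraries for each gene (grey points) of the gene lists, with the list median as a thick mark, red above 0 and blue below. The dashed line is the median of all genes, 0.05; muscle lists sit near 0.7 to 1.0 and erythroid, neutrophil and cell cycle lists near -1.0.

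Genes of energy metabolism followed with smaller differences. All 33 nuclear genes of oxidative phosphorylation were higher on the Ttn-high side, with a median of 0.52, and 30 were called; Atp5a1, a subunit of ATP synthase, averaged 1061 ± 193 CPM (SD, n = 7) against 748 ± 214 (SD, n = 7). The 13 genes encoded by mitochondrial DNA had a median of 0.56, and 4 were called, near the 28.6% of all genes. Between the limbs of a mouse 11 were called positive, against 27.0% of all genes. mt-Co1, a subunit of cytochrome oxidase, had a slope of 0.59 ± 0.16 (SE; edgeR adjusted p = 0.004829). In fatty acid oxidation 16 of 19 genes were called positive. The 2 carnitine palmitoyltransferases differed in sign: Cpt1b, the muscle form, had a slope of 0.92 ± 0.13 and Cpt1a, the form of liver and many other cells, -0.37 ± 0.05 (SE; both called, edgeR adjusted p = 1.281e-05 and 1.58e-05). Without the 3 libraries below 3% Ttn, none of these 33, 13 and 19 genes was called (edgeR).

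Fibrous, smooth muscle and nerve lists were called mostly positive over all libraries. Of 27 tendon and fibrous genes 21 were called positive and 1 negative, Pi16, a fibroblast gene, with a median difference of 0.44. Col3a1, a fibrillar collagen of loose tissue, had a slope of 0.88 ± 0.21 and Dcn, the matrix proteoglycan decorin, 0.84 ± 0.20 (SE; edgeR adjusted p = 0.001361 and 0.001278). Dcn turned to -0.26 and was not called without the 3 libraries below 3% Ttn, where none of the 27 was called and the median slope of the list was -0.01. The summed share of the list was 0.321% ± 0.0526 (SD, n = 7) on the high side, 0.272% ± 0.0871 (SD, n = 7) on the low side and 0.373% ± 0.123 (SD, n = 8) in the libraries between, so it did not change in step with Ttn. Smooth muscle and pericyte genes were called positive in 13 of 15, and Des (desmin), which this list shares with the sarcomere list, was the highest of them; Rgs5, a pericyte gene, had a slope of 0.60 ± 0.12 (SE; edgeR adjusted p = 0.0003117). None of the 15 was called without the 3 libraries below 3% Ttn, and the median slope was then 0.03.

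Schwann cell and myelin genes, which come from nerve, were called positive in 10 of 16, with a median difference of 0.53. Drp2, a dystrophin-related protein of myelinating Schwann cells, ranged from 24.4 to 65.1 CPM on the high side (median 37.3) and from 3.65 to 63.6 CPM on the low side (median 38.1). These ranges overlapped over most of their length, and the slope was 1.05 ± 0.37 (SE; edgeR adjusted p = 0.0222). Between the limbs of a mouse it was 2.11 ± 0.33 (SE; edgeR adjusted p = 0.0003184), and 13 of the 16 genes were called there. Without the 3 libraries below 3% Ttn none of the 16 was called and the median slope turned from 0.70 to -0.15. Without mouse 691, 1 of the 16 genes was called in the model with group means.

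Endothelial genes were mixed, with 7 of 18 called positive (28.6% over all genes), such as Ptprb and Flt1, and 2 negative (26.3% over all genes), Vwf and Erg. Vwf, the gene of von Willebrand factor, is also on the megakaryocyte list. Among 15 adipocyte genes 4 were positive, near the 28.6% of all genes, including Car3 and Plin4, which fibres of muscle also express, and 1 negative, Pparg, the regulator of fat cell formation.

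Most marrow lists went the other way, but not all. The 26 erythroid genes were all lower on the Ttn-high side, with a median difference of -1.06, and all were called negative in the slope test. The same held for all 24 neutrophil genes (median -1.07), all 18 megakaryocyte genes (-0.91), all 30 cell cycle genes (-0.99) and all 22 replication-dependent histone genes (-0.93). Histone and immunoglobulin genes have near-identical copies between which reads can be split, so single values there are uncertain. Stem and progenitor genes were split, with 7 of 18 called positive and 8 negative (median slope -0.19), against 28.6% and 26.3% of all genes. Of 12 genes of stromal reticular cells none was called positive and 3 negative (median slope -0.02), near the 26.3% of all genes. Of 20 monocyte and macrophage genes 16 were called negative, and of 19 eosinophil, basophil and mast cell genes also 16. In loaded limbs alone 12 of 26 erythroid, 2 of 24 neutrophil and 1 of 18 megakaryocyte genes were called negative. Monocyte genes were called in 8 of 20 and eosinophil-list genes in 0 of 19 there. Cell cycle and histone genes kept 30 of 30 and 19 of 22, against 1102 of 17972 genes in all. Without the 3 libraries below 3% Ttn, 1 of 18 megakaryocyte, 1 of 20 monocyte and 3 of 19 eosinophil-list genes were called. That fit called 594 of all 18871 genes negative. Summed over 167 marrow-list genes, the share of counts was 0.975% ± 0.208 (SD, n = 7; 0.688% to 1.33%) on the high side and 2.37% ± 1.10 (SD, n = 7; 1.08% to 4.08%) on the low side.

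S100a8, a calcium-binding protein packed in neutrophils, measured 314 to 770 CPM in Ttn-high libraries (median 482) and 589 to 3709 CPM in Ttn-low libraries (median 1439). The overlap came from WT non-loaded 694 at 589 CPM, and the highest value was that of WT non-loaded 699. Its slope was -1.16 ± 0.18 (SE; edgeR adjusted p = 2.888e-05). Elane, Ctsg and Fcnb, granule genes of early neutrophil stages, were separated without overlap and were picked out after their values were seen.

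Slc4a1, the anion exchanger of the red cell membrane, ran from 216 to 641 CPM (median 361) on the high side and from 423 to 1405 CPM (median 543) on the low side. Only the 3 libraries below 3% Ttn exceeded the high range, and the other 4 low libraries lay within it. The slope of -1.10 ± 0.18 (SE, edgeR adjusted p = 3.974e-05) was -1.03 and not called without those 3. Then 1 of 26 erythroid genes was called negative, near the share of all genes (594 of 18871).

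Mki67, a nuclear protein of dividing cells, ranged from 262 to 475 CPM (median 321) on the high side and from 370 to 1254 CPM (median 617) on the low side. Its slope of -1.01 ± 0.12 (SE, edgeR adjusted p = 8.834e-07) was called in each of 24 alternatives. It lay between -1.22 and -0.86 in all but the fit on Ttn as a percent, which has another scale. Without the 3 libraries below 3% Ttn, 28 of the 30 cell cycle genes were called negative, 6 of 24 neutrophil genes and 5 of 22 histone genes. Among all 18871 genes in that fit 594 were called negative. The median slopes moved less than the calls, from -0.91 to -0.93 for neutrophil, from -0.85 to -0.79 for histone and from -1.05 to -0.98 for erythroid genes.

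Osteoclast genes, expressed by the bone-resorbing cells that arise from marrow, had a median of -0.25 and 5 of 16 called negative, near the 26.3% of all genes. Car2, a carbonic anhydrase that red cells also hold, had a slope of -1.09 ± 0.16, Itgb3, an integrin that platelets also carry, -0.80 ± 0.11, and Mmp9, a protease of osteoclasts and neutrophils, -0.64 ± 0.12 (SE; all called, edgeR). Acp5, the tartrate-resistant acid phosphatase of osteoclasts, was not called (slope -0.25, adjusted p = 0.2399). Ribosomal protein genes were lower on the Ttn-high side by little but in most members: 42 of 44 were below 0, with a median of -0.27. Of the 44, 41 were called negative (26.3% over all genes) and 7 were lower without overlap (0.915% over all genes). Between the limbs of a mouse 27 were called negative (27.0% over all genes). Loaded limbs alone gave 7 negative calls, against 1102 of 17972 genes in all. Without the 3 libraries below 3% Ttn 0 were called (edgeR), and the median slope was -0.21 against -0.24. Rpsa, a protein of the small subunit, measured 506 to 586 CPM (median 538) on the high side and 594 to 801 CPM (median 639) on the low side.

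**Figure D3:**
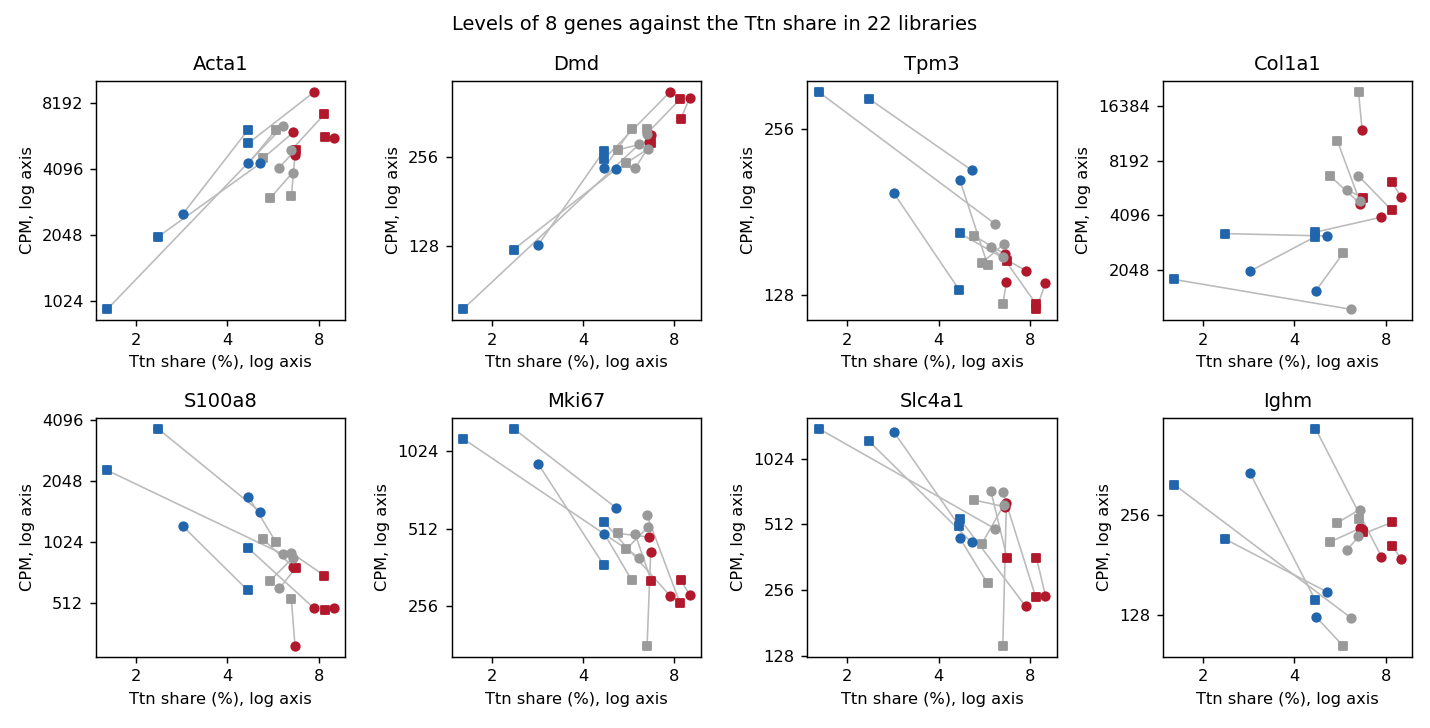
CPM of 8 genes (log axis) against the Ttn share in percent (log axis) in the 22 libraries, red for Ttn-high, grey for the libraries between and blue for Ttn-low; circles are loaded limbs, squares non-loaded limbs, and grey lines join the limbs of a mouse. Dmd follows Ttn closely, Mki67 and S100a8 fall, and for Col1a1 the lines within mice do not follow the rise across mice.

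Bone genes gave different answers across libraries and within mice. Of 25 osteoblast genes 23 were higher on the Ttn-high side, with a median of 0.50. In the model with group means 16 were called positive (28.6% over all genes). That model took the limbs of a mouse as independent, so its calls and adjusted p for bone genes may be overstated. Between the limbs of a mouse 3 were called (27.0% over all genes), and the median slope was 0.08 instead of 0.48. Osteoblast calls numbered 2 in non-loaded limbs alone, 0 in loaded limbs alone and 0 without the 3 libraries below 3% Ttn. Their median slopes there were 0.43, 0.63 and 0.45. Over all genes these fits called 3862 of 18184, 1172 of 17972 and 554 of 18871 positive. Bone-list genes summed to 1.40% ± 0.503 of counts (SD, n = 7) on the high side and 0.933% ± 0.116 (SD, n = 7) on the low side, but 1.77% ± 1.14 (SD, n = 8) in the libraries between, so the share did not change in step with Ttn. In 2 of 11 mice the limb with more Ttn also had the larger bone share, while it had less marrow in 9 of 11 and more of the other muscle genes in 11 of 11. The loaded limb had more Ttn in 7 of 11 mice and the larger bone share in 2 of 11. The bone count by Ttn therefore cannot be told apart from load.

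Col1a1, the main collagen chain of bone matrix, measured 4000 to 12060 CPM in Ttn-high libraries (median 5125) and 1567 to 3311 CPM in Ttn-low libraries (median 3119). The sides did not overlap, but the 8 libraries between them ran from 1247 to 19540 CPM, beyond both. The slope was 0.93 ± 0.34 (SE; edgeR adjusted p = 0.02659) with group means and -0.01 ± 0.20 (SE; edgeR adjusted p = 0.9731) within mice. In mouse 691 the non-loaded limb had 1817 CPM and the loaded limb, with 3.80 times the Ttn share, 1247 CPM.

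Bglap, which encodes osteocalcin, behaved alike, with slopes of 0.997 ± 0.41 (SE; edgeR adjusted p = 0.0437) and 0.03 ± 0.28 (SE; edgeR adjusted p = 0.9435) in the 2 models. The Bglap call was kept in 7 of 24 alternatives, and leaving out 1 mouse at a time gave adjusted p up to 0.139 (edgeR). Osteocyte genes were called positive in 5 of 15, near the 28.6% of all genes, and negative in 1, Capg, an actin-capping protein found in macrophages too. Sost, the Wnt inhibitor made by osteocytes, had a slope of 0.24 ± 0.14 (SE; edgeR adjusted p = 0.1626), and Dmp1, a matrix protein of osteocytes, 0.29 ± 0.13 (SE; edgeR adjusted p = 0.0695). The order in which libraries were ranked also decided the sign for osteoblast genes: their median difference was -0.36 when the libraries were ranked by Acta1, -0.24 by Ckm and -0.04 by Neb.

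Lymphocyte genes showed the reverse arrangement. The 23 B cell genes had a median difference of 0.06 between the sides. With group means 5 were called negative (26.3% over all genes), or 1 without mouse 691. Within mice 20 were called negative (27.0% over all genes) with a median slope of -0.83. The fit within mice was not repeated without mouse 691, whose loaded limb had 3.80 times the Ttn share of the other. For 24 T and NK cell genes the median difference was 0.07, with 2 calls, Cd4 and Nkg7, and 12 negative calls within mice, against 27.0% of all genes there. Ighm, the heavy chain of the first antibody class, spanned 188 to 243 CPM (median 228) on the high side and 126 to 467 CPM (median 217) on the low side, which enclosed it. Its slope was -0.13 ± 0.16 (SE; edgeR adjusted p = 0.5149) with group means and -0.79 ± 0.16 (SE; edgeR adjusted p = 0.00131) within mice. Mouse 698 had 192 CPM in the limb with 7.74% Ttn and 467 CPM in the limb with 4.69%. Whether the slopes of the 2 models differ was not tested.

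**Figure D4:**
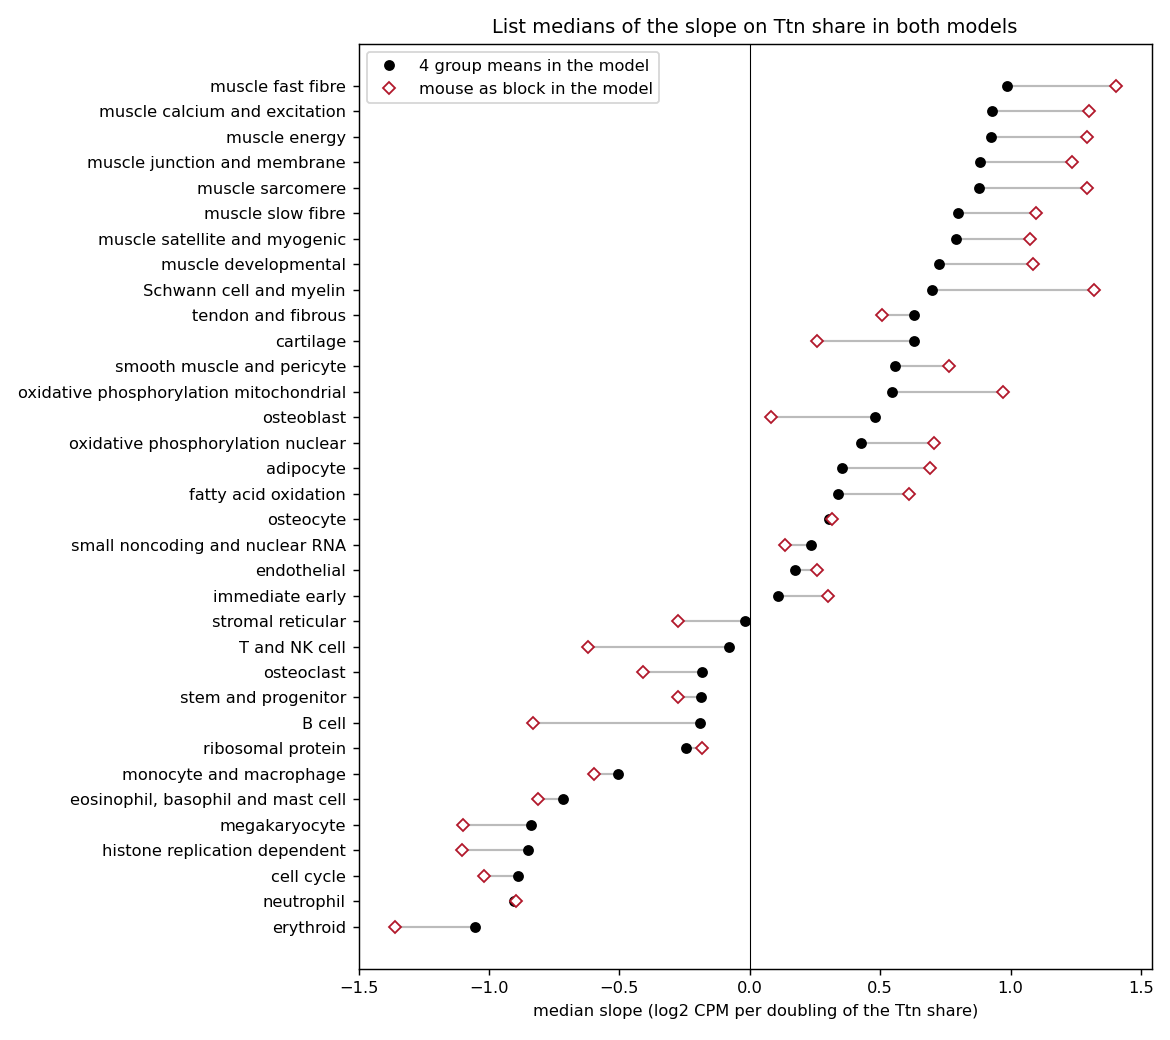
Median slope of each gene list in log2 CPM per doubling of the Ttn share, as a black circle for the model with 4 group means and a red diamond for the model with the mouse as a block. The osteoblast median moves from 0.48 to 0.08 and the B cell median from -0.19 to -0.83, while neutrophil genes stay near -0.90.

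Genes the study itself turns on were mostly not called by the slope test. Tlr4, the receptor for bacterial lipopolysaccharide that was targeted, measured 24.9 to 30.3 CPM in Ttn-high libraries (median 29.3) and 31.3 to 42.2 CPM in Ttn-low libraries (median 35.1). Every Ttn-high library was below every Ttn-low one, although 3 of the high and 2 of the low libraries were CKO. Over all 22 libraries the slope was -0.14 ± 0.07 (SE; edgeR adjusted p = 0.0931), and it was called in 4 of 24 alternatives, with DESeq2, with scaling by counts outside the muscle lists, with Ttn as a percent and without mouse 694. The summed marrow share moved the same way between the sides (0.975% and 2.37%), and its part in this difference was not tested.

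Ltbp2 had a slope of 0.70 ± 0.30 (SE; edgeR adjusted p = 0.0550) and, within mice, -0.07 ± 0.58. The loading-responsive genes Wnt1 (slope 0.38, adjusted p = 0.1751), Fosb (0.19, 0.4289), Egr1 (-0.20, 0.2512) and Ptgs2 (-0.26, 0.3532) were not called by edgeR. Wnt1 encodes a ligand that drives bone formation, Fosb and Egr1 are early transcription factors and Ptgs2 makes prostaglandins. Of 24 immediate early genes 8 were called positive and 6 negative, near the shares over all genes (28.6% and 26.3%). Nr4a1, an orphan nuclear receptor, had a slope of 0.78 ± 0.15, Jun, an AP-1 subunit, 0.56 ± 0.10, and Myc, a growth regulator, -0.46 ± 0.07 (SE; edgeR adjusted p = 0.0001919, 7.368e-05 and 9.573e-06).

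Outside the lists, the largest difference upward among genes above 10 CPM was Slc13a5, a citrate carrier, at 13.7 ± 9.85 CPM (SD, n = 7) against 3.78 ± 1.17 (SD, n = 7), but its slope within mice was -0.24 and not called (adjusted p = 0.7114). Among the 9 that followed were Slc38a3, a glutamine carrier, Ryr3, a calcium release channel, and Tacc2, a centrosomal protein, with slopes of 1.07, 1.25 and 1.08 and all called. Downward, Ighg1 and Ighg2b, heavy chains of plasma cells, differed by -1.75 and -1.41, Gfi1b, a factor of erythroid and megakaryocyte cells, by -1.24 and Ms4a3, a gene of granulocyte precursors, by -1.21, and all 4 were called. Hist1h2br had the lowest difference, -2.47, but was not called (adjusted p = 0.1842).

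Gene length was unevenly spread between the separated genes. Among protein-coding genes, the 106 that were higher in every Ttn-high library had a median exon length of 7601 bases, the 167 lower ones 3262 bases, and all 14915 tested 4389 bases. When the protein-coding genes outside the lists were divided into 5 bins of equal size by exon length, separated genes higher on the Ttn-high side numbered 4, 8, 14, 23 and 49 from the shortest to the longest bin, and those lower numbered 40, 53, 32, 16 and 14. Median differences ran from -0.04 in the shortest bin to 0.09 in the longest, with quartile ranges that overlapped in all 5. Muscle-list genes had median differences of 0.90, 0.94 and 0.92 in short, middle and long bins, with 0, 1 and 3 of them separated upward. Dst, Vps13d and Ash1l, long genes of the cytoskeleton, lipid transfer and chromatin, were among the higher set, and Ftl1, Ppia and Canx, genes of iron storage, protein folding and the endoplasmic reticulum, among the lower set; they were picked out after their values were seen. Ttn itself, at 116825 bases of exon on chromosome 2 (GRCm38, 76703980 to 76982547), is among the longest transcripts. The cause of this spread was not tested.

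**Figure D5:**
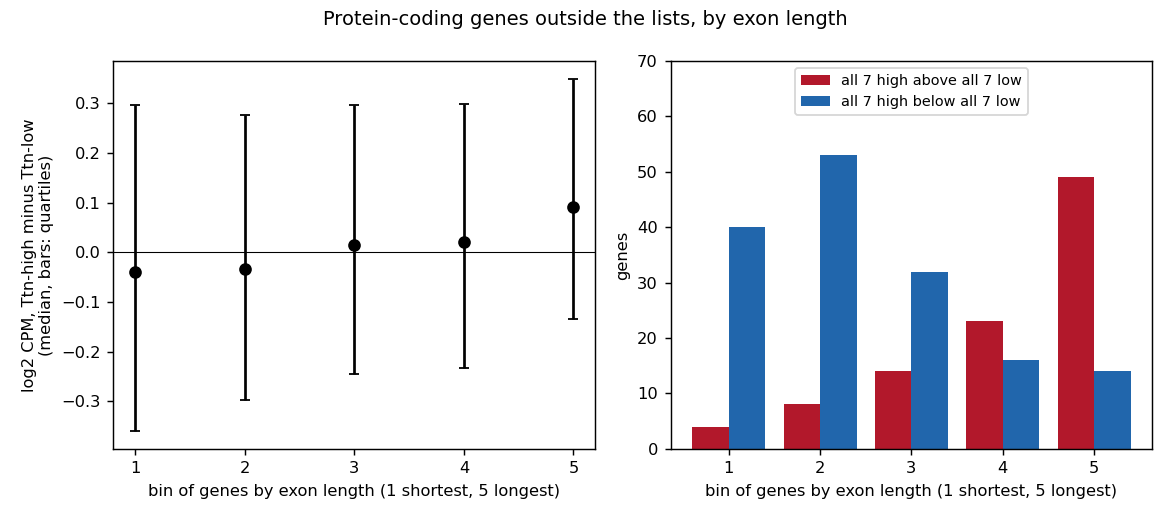
Protein-coding genes outside the lists in 5 bins of exon length, from the shortest (1) to the longest (5). The left panel gives the median and quartiles of the log2 CPM difference, Ttn-high minus Ttn-low; the right panel counts genes higher (red) or lower (blue) in all 7 Ttn-high than in all 7 Ttn-low libraries, with 49 higher and 14 lower in the longest bin.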

How the data were processed

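The authors deposited 1 file of RSEM expected counts per gene for each of 22 libraries, already whole numbers; per the submitters' processing notes reads were aligned with STAR and counted with RSEM on GRCm38. Per the labels' protocols, libraries came from a stranded total RNA kit. The 25471 genes were annotated from GENCODE for GRCm38. Libraries were grouped by the labels into genotype and load, and ranked by Ttn count over total count. Counts were filtered with filterByExpr and scaled by TMM in edgeR 4.0.16 (R 4.3.3), and log2 CPM used a prior count of 2. The difference between the 7 highest and 7 lowest libraries carries no test. Slopes on the log2 Ttn share were fitted to all 22 libraries by edgeR's quasi-likelihood test with 4 group means (17 residual degrees of freedom), Ttn itself left out of the tested genes; DESeq2 1.42.0 was an alternative. The 2 limbs of a mouse are not independent, and the mouse block is the fit that pairs them: limbs of a mouse come from the same animal per the labels, and their deviations correlated from -0.256 to 0.415 (over 0.1 in 7 of 11 mice). The fit with group means was tested on simulated counts drawn independently for each library, which cannot check the effect of linked limbs. The mouse-block fit was not tested on simulated data. Totals of 21999891 to 42833729 counts per library set the precision. Named genes were the study's genes, the 4 most abundant of each list, the 10 largest differences each way outside the lists (mean of 10 CPM or more), and called genes against their list. The members and lists were chosen with earlier results of these data known. Lists overlap in some genes. Alternatives covered the number of libraries per side, the ranking gene, scaling, filter, prior count, tool, covariate and leaving out mice. One gene of the Schwann cell list is not reported here.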

Additional observations from a re-analysis of the deposited data

Results flagged for a closer look

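In 16 combinations of a group and a summed share, 2 libraries stood far from the rest of their group, where chance alone flags about 1 in 20 groups. WT non-loaded 699 had a marrow share of 4.08%, the highest of the 7 WT non-loaded libraries, and its gap to the next was 0.853 of the group's range; it is on the Ttn-low side. CKO non-loaded 693 had a bone share of 1.64%, the highest of the 4 CKO non-loaded libraries, with a gap of 0.833 of the range; it is the first library above the Ttn-low side.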

How the results depend on the processing

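The counts of genes separated without overlap, 142 higher and 172 lower, depended on how the sides were made. They were 510 and 934 with 5 libraries on each side, 0 and 1 with 11, and 314 and 305 with 4 on each side after leaving out the 3 highest and 3 lowest. Ranking by Neb gave 951 higher, by Acta1 1204 and 415, by Ckm 1555 and 393, and by the muscle share without Ttn 1550 and 404. Of the 142 and 172 genes, 19 and 8 were still separated the same way by Neb, 9 and 0 by Ckm, and 0 and 0 by Acta1 or the muscle share without Ttn. Total count scaling gave 22 and 662, with the median of all genes at -0.15, and scaling by counts outside the muscle lists 48 and 328; without mice 686 and 688 the higher count was 221. Leaving out 1 mouse at a time gave 132 to 671 higher and 172 to 1325 lower, the most without mouse 694 (671 and 1325), then 698 (298 and 307), 693 (224 and 334) and 685 (214 and 302); fewer libraries make separation easier. The osteoblast median of 0.50 became -0.039 (Neb), -0.36 (Acta1), -0.24 (Ckm) and -0.31 (muscle share without Ttn), and the osteocyte median of 0.33 became -0.13 (Acta1), -0.078 (Ckm) and -0.029 (muscle share without Ttn). Slope calls, 5377 positive and 4938 negative, were 1172 and 1102 in loaded limbs alone, 554 and 594 without the 3 libraries below 3% Ttn, and 3321 to 5386 and 4143 to 5153 without 1 mouse at a time, the positive count lowest without mouse 691. The mouse as replicate block gave 5071 and 5068, of which 4134 and 4132 were called the same way without it, with none called in opposite directions. Under the replicate block the slope of Col1a1 was -0.009, and with scaling outside the muscle lists as well -0.047, and that of Bglap then -0.011; Dcn was -0.26 without the 3 libraries. The cause was not tested. The ranking by muscle share without Ttn, the 4 on each side, the fit without 3 libraries and the block with that scaling were chosen after seeing the data.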
